A study of Mus musculus with 20 samples.

Results

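The comparison described here sets whole blood drawn 25 days after tumour inoculation against blood drawn from the same mice before inoculation, on 8 of the 20 arrays of the series. The 4 arrays titled day 25 Blood and the 4 titled day 0 Blood were taken and matched by the mouse number in the title. All 4 mice, numbered 305, 310, 315 and 320, were female C57Bl/6 animals with no genetic change named in the labels. At day 0 they were untreated. On that day cells of Hepa1-6, a mouse hepatoma line, were placed under the skin, and every later sample came from a mouse that carried these cells. The 12 arrays of days 10, 15 and 20 came from the same 4 mice and serve as a second point of reference. Each sample was labelled with Cy5 and hybridised beside 1 common reference, blood of untreated female C57Bl/6 mice labelled with Cy3, so a log2 ratio of 0 means the level of the reference blood. The labels give no blood of mice without tumour cells at day 25, so the effects of tumour growth, repeated bleeding and time cannot be told apart.

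Whole blood RNA mixes the transcripts of red cell precursors and reticulocytes, neutrophils, lymphocytes, monocytes and platelets. Neutrophils carry large amounts of S100a8 and S100a9, the subunits of calprotectin, and reticulocytes still hold mRNA of membrane proteins such as the anion exchanger Slc4a1 and of heme synthesis enzymes. Tumours in mice are known to alter the output of the bone marrow and spleen, often with more granulocytes and changed red cell production. In whole blood, fewer cells of a type and less RNA per cell cannot be told apart.

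The 4 arrays of a day shared 1 slide, so day and slide cannot be told apart, and each mouse sat at the same slide position on every day, so mouse and position cannot be told apart either. The slides of days 15, 20 and 25 were scanned on the same date, and those of days 0 and 10 on other dates. Median net Cy5 signal was 50.1 to 69.6 at day 0 and 21.9 to 29.7 at day 25, and median net Cy3 signal was 79.6 to 110.2 and 24.1 to 26.4. Between 46.6% and 52.2% of spots were well above background in Cy5 on the 8 arrays. The 10 spike-in probes changed by -0.89 to -0.17 on the log2 scale (median -0.51), while the median of all genes changed by -0.00067. The normalisation (loess within each array) centres the gene ratios of each array, so the small change of the gene median is set by it. All changes given here are thus relative to the other genes of an array. Over all genes, 2 day 0 arrays were nearer to another day than to their own. That of mouse 320 had a mean correlation of 0.41 with the other day 0 arrays and 0.61 with the day 10 arrays, and that of mouse 305 had 0.47 with the other day 0 arrays and 0.60 with the day 25 arrays. The defining markers Slc4a1, S100a8, Csf3r, Cd79a, Cd3e and Pf4 were well above background on all 8 arrays, and so were Afp, a fetal liver and hepatoma gene, and Krt5, a skin keratin. Cd4 was so on 1 day 0 array, Acta1, a muscle actin, on 1 day 0 array, and albumin (Alb) on 1 day 25 array.

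Genes lower in day 25 than in day 0 blood included the neutrophil genes S100a8, S100a9, Wfdc21 and Adam8 and the red cell gene Trim10. Genes that were higher included an antibody heavy chain, the class II gene H2-Eb1 and the IgE receptor Fcer2a of B cells. Of 15161 genes tested with limma, 31 passed an adjusted p of 0.05: 7 were higher (0.0462% of all genes) and 24 were lower (0.158%). A further measure of size is fold change: 8 of the lower genes and 0 of the higher genes changed at least 2-fold. In 30 of the 31 the sign was the same in all 4 mice and the 4 day 25 values did not overlap the 4 day 0 values, which held for 892 (5.88%) of all genes. At an unadjusted p of 0.05, 2659 genes differed. With mouse as a block, which uses the pairing, 230 genes passed, 38 higher (0.251%) and 192 lower (1.27%), and all 31 were among them. Fitted on the 8 arrays of days 0 and 25 alone, without the spread of the other days, 1 of the 31 passed, and 0 did with the block added. No called gene was below background on any of the 8 arrays. The calls rest on few arrays. Without the day 0 array of mouse 320 only 1 gene passed (Igh-VJ558), without that of mouse 310 only 2 passed (Igh-VJ558 and BC089618), and without the day 25 arrays of mice 305, 315 and 320 in turn 5, 11 and 4 passed. Without the day 0 array of mouse 315 there were 27, of which 13 were among the 31. Without the day 0 array of mouse 305 there were 185, and without the day 25 array of mouse 310, whose log ratios had the narrowest spread (SD 0.132), there were 1564. The direction of all 31 was the same in each of these fits. For the 30 without overlap, leaving out 1 array could not turn the sign, so this lends the calls no weight.

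**Figure D1:**
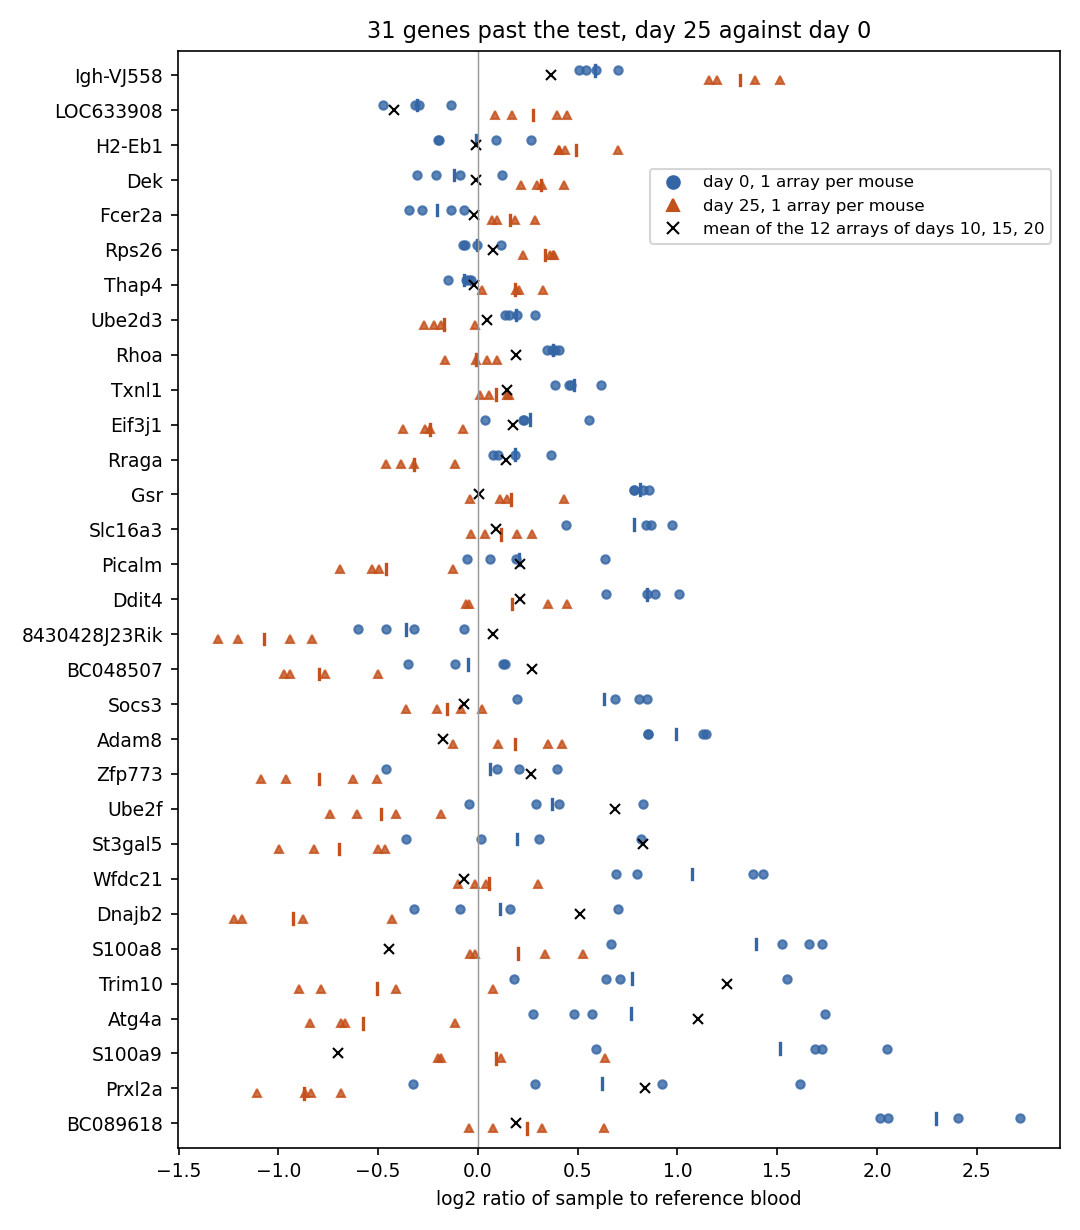
Log2 ratios to the reference of the 31 genes past the test, 1 row per gene, ordered by change. Blue circles are the 4 day 0 arrays, orange triangles the 4 day 25 arrays, vertical bars their means and crosses the mean of the 12 arrays of days 10, 15 and 20. In S100a9 alone the 2 days overlap, and the crosses of S100a8, S100a9, Adam8 and Igh-VJ558 lie below all values of both days.

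Of 24 tested genes of the mature neutrophil list, 4 fell (S100a8, S100a9, Wfdc21 and Adam8), 0 rose and 20 did not pass, 22 of 24 had changes below 0, and the median change was -0.49 against -0.00067 for all genes. The share of lower calls over all genes was 0.158%. The reference was itself blood of untreated mice, yet the untreated day 0 arrays lay farther from it than day 25. The list medians by array were 0.53 to 0.97 at day 0 and 0.03 to 0.39 at day 25. The decrease was thus towards the level of the reference blood, and why day 0 lay above it was not tested. S100a9 stood at 0.59, 2.05, 1.69 and 1.72 at day 0 in mice 305, 310, 315 and 320 and at 0.63, 0.12, -0.20 and -0.19 at day 25. Mouse 305 was the lowest at day 0 and the highest at day 25, and it alone showed no decrease, so the 2 days overlapped. The mean change of S100a9 was -1.42 (SE 0.27, adjusted p = 0.0436), 2.68-fold lower.

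S100a8, the partner subunit, stood at 0.67, 1.52, 1.66 and 1.72 at day 0 and at 0.52, 0.33, -0.04 and -0.01 at day 25 in the same order of mice. It fell in 4 of 4 mice, again least in mouse 305, by -1.19 on average (SE 0.23, adjusted p = 0.0436). Wfdc21, a whey acidic protein domain gene of neutrophils, was 0.69 to 1.43 at day 0 and -0.10 to 0.30 at day 25, a change of -1.02 (SE 0.16, adjusted p = 0.0162). Adam8, a membrane metalloprotease of granulocytes, was 0.85 to 1.14 at day 0 and -0.13 to 0.42 at day 25, a change of -0.81 (SE 0.13, adjusted p = 0.0202). Neither overlapped between the days. Lrg1, a glycoprotein stored in neutrophil granules, was 0.60 to 1.27 at day 0 and -0.84 to 0.40 at day 25, a change of -1.26 that did not pass (SE 0.28, adjusted p = 0.0635). The list median over the genes of each mouse changed by -0.06 in mouse 305, -0.77 in mouse 310, -0.27 in mouse 315 and -0.94 in mouse 320.

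S100a8 and S100a9 passed in only 2 of the 8 fits that left out 1 array of these days, Wfdc21 and Adam8 in 5. Without the day 0 array of mouse 310 or of mouse 320, or the day 25 array of mouse 320, 0 of 24 neutrophil genes passed, with list medians of -0.48, -0.42 and -0.46, and with mouse as a block 6 of 24 did. Without the day 0 array of mouse 305 and the day 25 array of mouse 310, 7 and 8 passed, and without the day 0 array of mouse 315 or the day 25 arrays of mice 305 and 315, 2 did. Over all 15161 genes, 185, 1564, 27, 5 and 11 passed in these fits, in the same order, and 230 with mouse as a block. The list of phagocyte receptors and oxidase subunits had a median of -0.21, with 0 of 23 genes past the test and 6 of 23 changes above 0. Its members with the smallest p were Clec4e, a lectin receptor for fungal and dead-cell ligands, at -0.64 (SE 0.15, adjusted p = 0.0635) and Cd300lf, an inhibitory receptor of myeloid cells, at -0.83 (SE 0.19, adjusted p = 0.0663).

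The same genes were followed at the earlier bleeds, from day 25 minus the mean of days 10, 15 and 20, a contrast that uses no day 0 array. In it 3390 genes were higher (22.4%) and 2438 lower (16.1%), a far wider background than against day 0. S100a9 was -1.42 to -0.06 on the 12 earlier arrays and 0.79 higher at day 25 (SE 0.22, adjusted p = 0.0104), S100a8 was 0.65 higher (adjusted p = 0.0124) and Adam8 0.36 higher (adjusted p = 0.0136). These 3 genes were thus lower than before inoculation and higher than at the bleeds between. Wfdc21 differed by 0.13 (adjusted p = 0.444). Of the 24 neutrophil genes 8 were higher than at the earlier bleeds and 0 lower, among them Retnlg at 0.52 and Slpi at 0.49. Against days 15 and 20 alone, the slides scanned on the same date as day 25, 2572 of all genes were higher (17.0%) and 2033 lower (13.4%), and again 8 of 24 neutrophil genes were higher and 0 lower. Without the day 25 array of mouse 305, 1 of the 24 was higher than at days 10, 15 and 20, where 2315 of all 15161 genes were.

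The promoter windows of S100a9 and Adam8 are shown because both genes fell together and hold the letters TTGCNNAA, a form of the site of C/EBP factors, which act in granulocyte development. Each window runs from 250 bases before to 50 after the transcription start and was taken from RefSeq on GRCm38.p6, S100a9 at chr3:90695672-90695971 on the minus strand and Adam8 at chr7:139992513-139992812 on the minus strand. Capitals mark the match.
S100a9: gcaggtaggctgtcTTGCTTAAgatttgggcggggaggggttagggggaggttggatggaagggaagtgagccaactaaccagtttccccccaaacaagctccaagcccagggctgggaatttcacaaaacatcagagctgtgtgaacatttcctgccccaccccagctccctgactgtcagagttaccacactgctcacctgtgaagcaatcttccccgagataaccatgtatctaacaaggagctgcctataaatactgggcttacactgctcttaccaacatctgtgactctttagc
Adam8: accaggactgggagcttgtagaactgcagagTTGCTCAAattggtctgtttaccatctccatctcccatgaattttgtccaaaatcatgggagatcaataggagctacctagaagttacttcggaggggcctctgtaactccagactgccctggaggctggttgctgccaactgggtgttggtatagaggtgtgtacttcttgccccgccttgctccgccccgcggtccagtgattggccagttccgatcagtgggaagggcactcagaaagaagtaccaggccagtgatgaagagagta
The matches begin 236 and 219 bases before the start. On either strand, the letters occur in 10.8% of all 32851 windows. Of the 19 neutrophil list genes with a window 5 hold them (Adam8, Mmp8, Retnlg, S100a9 and Slpi), against 12.2% of all genes, and the S100a8 window does not. A match of letters is a description and shows no binding.

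Most red cell transcripts were at lower levels at day 25, though few passed the test. Of 23 tested erythroid genes 1 fell (Trim10), 0 rose and 22 did not pass, yet 21 of 23 changes lay below 0, with a median of -0.58. Over all genes 0.158% were called lower. By mouse the list median changed by -0.41, -0.23, -0.67 and -0.83 in mice 305, 310, 315 and 320. Trim10, a tripartite motif protein needed in terminal red cell maturation, was 0.18, 0.64, 0.71 and 1.55 at day 0 and -0.90, 0.08, -0.79 and -0.41 at day 25. Mouse 320 was highest at day 0 and mouse 310 at day 25, and the days did not overlap. The change was -1.28 (SE 0.26, adjusted p = 0.0497), close to the threshold. It passed in 2 of 8 fits without 1 array, and without the day 0 array of mouse 310 or 320, or the day 25 array of mouse 305, 315 or 320, 0 of 23 erythroid genes passed, with list medians of -0.66 to -0.45.

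Several other red cell genes were about as much lower without passing. Other members of the list changed less, such as Rhag (-0.29) and Ermap (-0.0051). Slc4a1, the band 3 anion exchanger, was -0.48, 0.30, -0.39 and 1.01 at day 0 and -1.34, -0.69, -1.25 and -0.88 at day 25, a difference of -1.15 (SE 0.27, adjusted p = 0.0675). Rhd of the Rh blood group differed by -1.03 (adjusted p = 0.0635) and Car2, a carbonic anhydrase, by -1.06 (adjusted p = 0.0515). These 3 were lower in every mouse, and mouse 320 held the highest day 0 value of each. Eraf, the array's name for the alpha haemoglobin stabilising protein, differed by -0.91 (SE 0.19, adjusted p = 0.0571). Hba-a1, an alpha globin chain, did not share this: it was -0.36, 0.33 and 0.54 on the 3 day 0 arrays with a value and -0.26 to 0.92 at day 25, a difference of 0.18 (SE 0.37, adjusted p = 0.832) whose sign turned to -0.94 with array medians in place of loess and to -0.24 with the Cy5 channel alone.

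Against the earlier bleeds the erythroid difference was wider. Of 23 genes 19 were lower at day 25 than at days 10, 15 and 20 and 1 was higher (Tal1), with a median of -1.06, where 16.1% of all genes were lower. Slc4a1 was 0.23 to 1.23 on the 12 earlier arrays, above all 4 day 25 values, a change of -1.78 (SE 0.22, adjusted p = 2.89e-05). Trim10 was 0.88 to 1.66 on those arrays and changed by -1.75 (adjusted p = 2.41e-05). Against days 15 and 20 alone 19 of 23 erythroid genes were lower, with a median of -0.89, where 13.4% of all genes were lower. With array medians in place of loess the whole gene set shifted, its median from 0.03 to 0.36. In that run 2 of 23 erythroid genes were lower and 1 higher, with a median of -0.23. Of all 15161 genes, 152 were lower and 7664 higher.

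**Figure D2:**
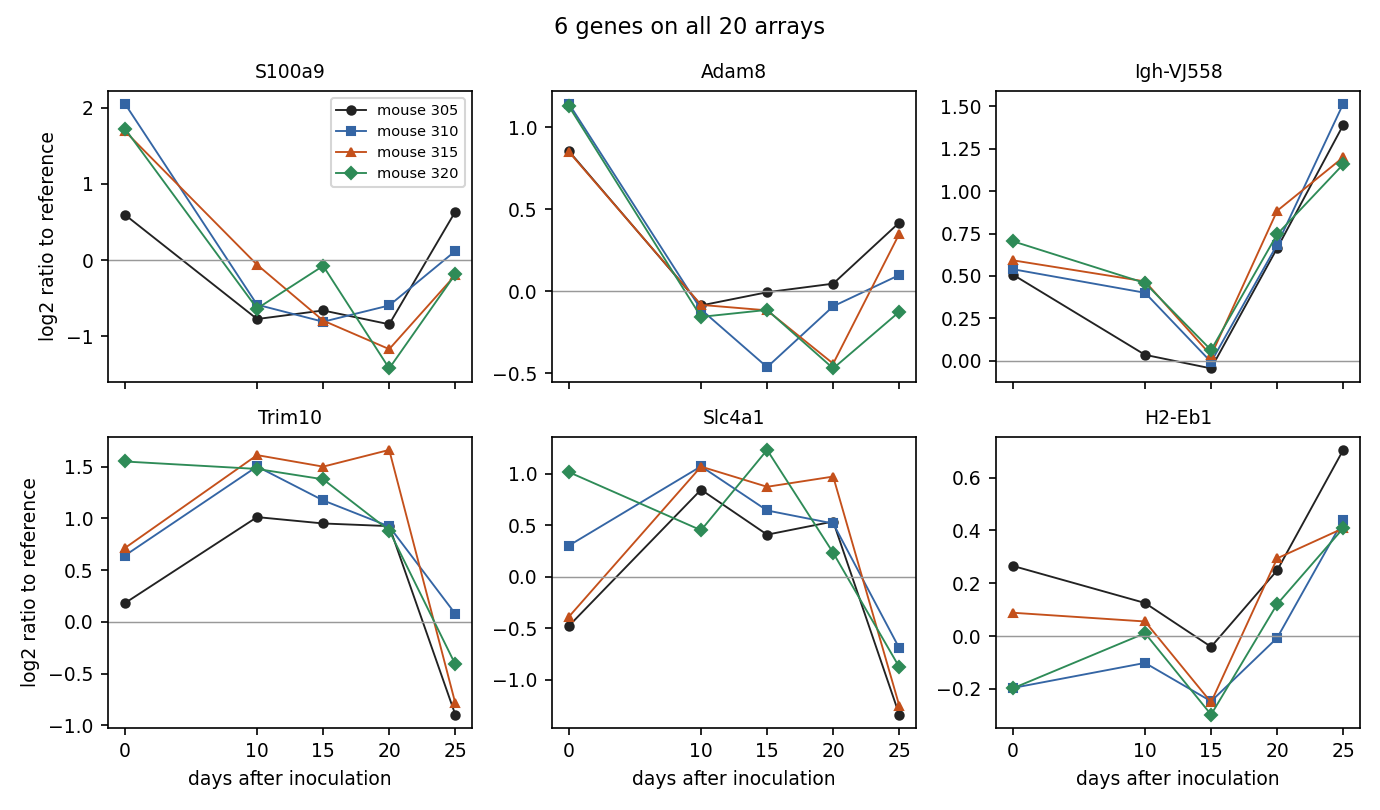
Log2 ratio to the reference of 6 genes on all 20 arrays against days after inoculation, 1 line per mouse. S100a9 and Adam8 are highest at day 0, except S100a9 in mouse 305 (0.59 at day 0 and 0.63 at day 25), and lower between, Trim10 and Slc4a1 drop at day 25 below every earlier bleed, and Igh-VJ558 and H2-Eb1 are highest at day 25.

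The heme synthesis and iron list had a median change of -0.25 from day 0, with 0 of 22 genes past the test and 20 of 22 changes below 0. Blvrb, a biliverdin reductase abundant in red cells, differed by -0.82 (SE 0.18, adjusted p = 0.0635), lower in 4 of 4 mice. Against the earlier bleeds 14 of 22 were lower (16.1% of all genes) and 1 higher (Slc11a2, an iron transporter), Blvrb by -1.43, with a list median of -0.37 that turned to 0.11 with array medians in place of loess. With mouse as a block 3 of 22 heme genes and 9 of 23 erythroid genes were lower than at day 0, where 1.27% of all genes were. Without the day 25 array of mouse 310, 12 of 23 erythroid and 4 of 22 heme genes were lower and 1 heme gene higher. In that fit 772 of all 15161 genes were lower and 792 higher. Without the day 0 array of mouse 305, 9 erythroid and 5 heme genes were lower, where 159 of all 15161 genes were. Without the day 0 array of mouse 320, 0 genes of either list and 0 of all genes were lower.

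The Trim10 window (RefSeq, GRCm38.p6, chr17:36869324-36869623, plus strand) is shown because Trim10 was the erythroid gene past the test. It was searched for AGATAA, a form of the GATA factor site, on both strands, and capitals mark the match on the opposite strand, 163 bases before the start.
Trim10: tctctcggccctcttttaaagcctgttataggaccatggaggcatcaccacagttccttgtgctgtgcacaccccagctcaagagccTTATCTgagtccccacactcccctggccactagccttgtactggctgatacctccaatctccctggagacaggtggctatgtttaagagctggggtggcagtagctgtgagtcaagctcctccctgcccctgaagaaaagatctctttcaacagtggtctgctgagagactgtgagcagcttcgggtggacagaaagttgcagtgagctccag
The letters occur in 11.2% of all windows. Of the 15 erythroid list genes with a window 6 hold them (Epb42, Kel, Rhd, Tal1, Tmcc2 and Trim10), against 12.7% of all genes.

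**Figure D3:**
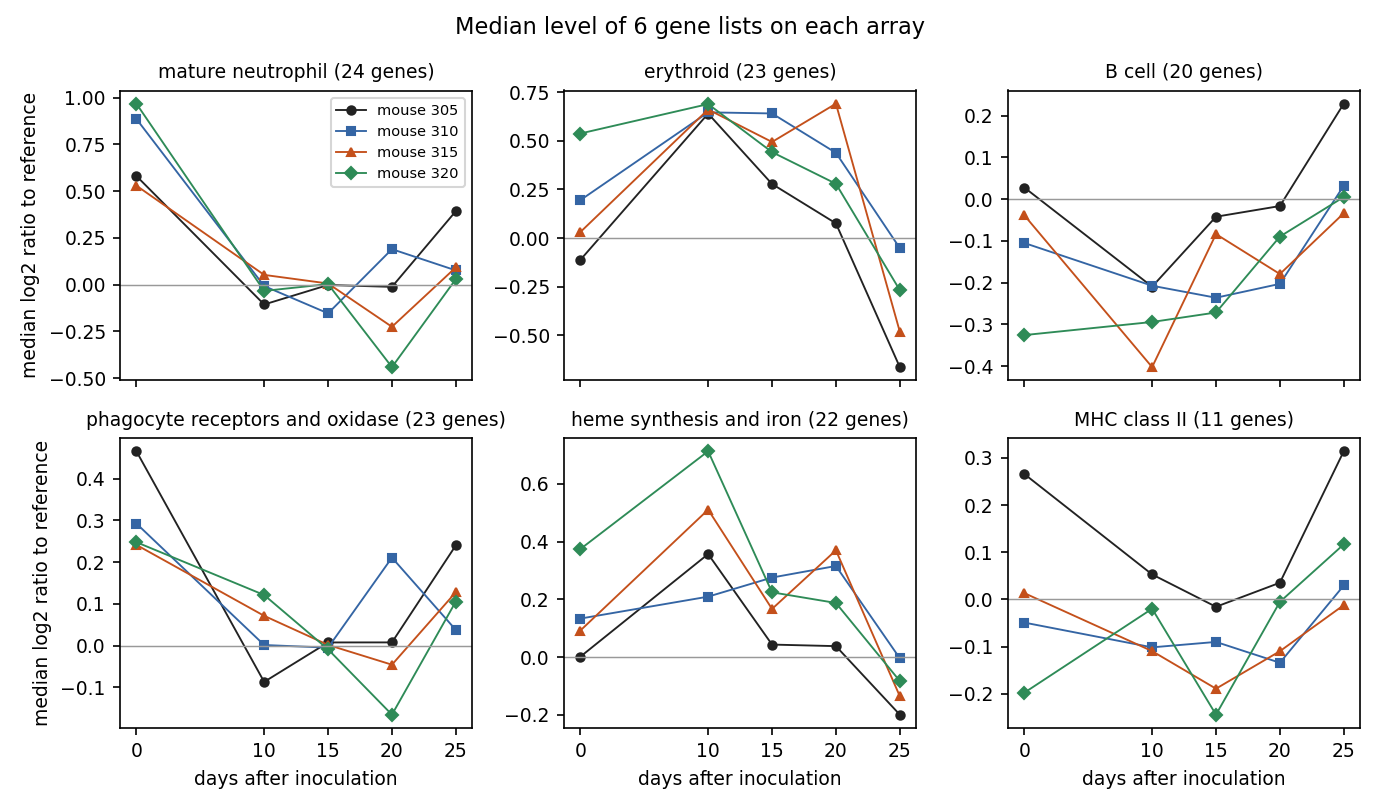
Median log2 ratio to the reference over the tested genes of 6 lists on each array, against days after inoculation, 1 line per mouse. The neutrophil medians are 0.53 to 0.97 at day 0 and 0.03 to 0.39 at day 25, and the erythroid medians are -0.11 to 0.54 and -0.66 to -0.05. B cell medians are highest at day 25 in each mouse, though in mouse 315 day 25 (-0.034) barely differs from day 0 (-0.039).

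A set of genes outside the cell type lists fell from day 0 and lay below the earlier bleeds, as Trim10 did. Prxl2a, a peroxiredoxin-like redox protein, was -0.33, 0.92, 0.29 and 1.61 at day 0 and -1.11 to -0.69 at day 25, a change of -1.50 (SE 0.27, adjusted p = 0.0352). Atg4a, a protease that processes ATG8 proteins in autophagy, was 0.27 to 1.74 at day 0 and -0.84 to -0.11 at day 25, a change of -1.34 (SE 0.24, adjusted p = 0.0358). In both genes mouse 320 held the highest day 0 value and no values overlapped. Dnajb2, a co-chaperone of the Hsp40 family, changed by -1.04 (SE 0.21, adjusted p = 0.0497). St3gal5, the sialyltransferase that makes ganglioside GM3, changed by -0.89 (SE 0.18, adjusted p = 0.0499). Zfp773, a zinc finger gene, changed by -0.86 (SE 0.16, adjusted p = 0.0358). These 5 fell in 4 of 4 mice and, as set against days 10, 15 and 20, were lower by -1.71, -1.68, -1.44, -1.52 and -1.06 in the same order.

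The other named genes lower than at both day 0 and the earlier bleeds had varied functions. Ube2f, an E2 enzyme that conjugates NEDD8, changed by -0.86 (SE 0.17, adjusted p = 0.0436), though its other 2 kept probes changed by -0.51 and 0.05. Ube2d3, a ubiquitin E2 enzyme, changed by -0.36 (SE 0.06, adjusted p = 0.0202), and its other 3 kept probes by -0.42 to -0.060. Rraga, a Rag GTPase that carries the amino acid signal to mTORC1, was 0.08 to 0.37 at day 0 and -0.46 to -0.11 at day 25, a change of -0.50 (SE 0.07, adjusted p = 0.012) kept in 6 of 8 fits without 1 array. Picalm, a clathrin assembly protein that red cell precursors need for transferrin receptor uptake, changed by -0.67, while its other kept probe changed by -0.092. Eif3j1, a translation initiation factor subunit, changed by -0.50 (other 2 probes -0.34 and -0.24), and Rhoa, a small GTPase of the cytoskeleton, by -0.39 (other probe -0.51). Each was also lower than at the earlier bleeds (Rraga by -0.46, Picalm by -0.67, Eif3j1 by -0.42, Ube2d3 by -0.22 and Rhoa by -0.20).

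A further set of lower genes did not differ between day 25 and the earlier bleeds by the test. Socs3, an inhibitor of cytokine signalling induced through STAT3, was 0.19, 0.81, 0.85 and 0.69 at day 0 and -0.08, 0.02, -0.36 and -0.20 at day 25. Its change was -0.79 (SE 0.14, adjusted p = 0.0258), and it differed from days 10, 15 and 20 by -0.08 (adjusted p = 0.565). Ddit4, an mTORC1 inhibitor induced by hypoxia and glucocorticoids, was 0.64 to 1.01 at day 0 and -0.06 to 0.45 at day 25, a change of -0.67 (SE 0.13, adjusted p = 0.0436). Slc16a3, a lactate exporter, changed by -0.66 (SE 0.13, adjusted p = 0.0495). Both belong to the glycolysis and hypoxia list, of which 2 of 28 genes fell and 0 rose, with a median of 0.02, where 0.158% of all genes fell. Gsr, which regenerates reduced glutathione, was 0.78 to 0.86 at day 0, a narrow range, and -0.04 to 0.43 at day 25, a change of -0.65 (SE 0.11, adjusted p = 0.0246), and its other 2 kept probes changed by -0.54 and -0.33. Txnl1, a thioredoxin-like protein, changed by -0.39 (SE 0.08, adjusted p = 0.0436). These 2 were the antioxidant list genes past the test, of 26 (median -0.13), where 0.158% of all genes fell.

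Of genes without an established name, BC089618 had the largest decrease of all 31: it was 2.01, 2.41, 2.06 and 2.71 at day 0 and 0.63, 0.32, 0.08 and -0.04 at day 25, a change of -2.05 (SE 0.28, adjusted p = 0.00746), 4.14-fold lower. Its level at the 12 earlier bleeds was -0.65 to 1.48, and day 25 differed from their mean by 0.05 (adjusted p = 0.87). Among the fits without 1 array, the call was lost without the day 0 array of mouse 320, at an adjusted p of 0.051. Of 13 other alternatives in processing, pairing or arrays, BC089618 passed in 9, with changes of -2.40 to -1.81. BC048507 and 8430428J23Rik changed by -0.74 (other kept probe -0.064) and -0.71 and turned to 0.80 and 0.73 with the Cy5 channel alone.

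Of the 7 genes that rose, an antibody heavy chain probe had the largest change. Igh-VJ558, the array's name for variable segments of the J558 family, was 0.51, 0.54, 0.59 and 0.70 at day 0 and 1.39, 1.51, 1.20 and 1.16 at day 25. Every day 25 array lay above every other array of the series for this probe, whose 12 earlier values were -0.04 to 0.88. The change was 0.73 (SE 0.09, adjusted p = 0.00323), 1.66-fold higher, and it was the 1 gene that passed in all 8 fits without 1 array. Of 13 other alternatives in processing, pairing or arrays, Igh-VJ558 passed in 8, with changes of 0.20 to 1.99. Fitted on the 8 arrays of days 0 and 25 alone, it did not pass. Against days 10, 15 and 20 it was 0.95 higher (adjusted p = 2.25e-06). The 8 other kept probes under this name changed by -0.05 to 0.53. Segments of this family are near-identical, so the probe cannot be tied to 1 of them.

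Most B cell genes had changes above 0, of which 1 passed the test. Of 20 tested B cell genes 1 rose (Fcer2a), 0 fell and 19 did not pass, with 16 of 20 changes above 0 and a median of 0.21, where 0.0462% of all genes were called higher. The medians by mouse were 0.28, 0.12, -0.02 and 0.44 in mice 305, 310, 315 and 320. Fcer2a, the low-affinity IgE receptor CD23, was -0.13, -0.28, -0.07 and -0.34 at day 0 and 0.29, 0.09, 0.07 and 0.19 at day 25, a change of 0.37 (SE 0.07, adjusted p = 0.0358) kept in 4 of 8 fits without 1 array. Ighm, the IgM heavy chain, was 0.66 higher in the mean (SE 0.21, adjusted p = 0.139), Cd79b, a signalling chain of the B cell receptor, 0.61 (adjusted p = 0.139) and Ms4a1, the CD20 antigen, 0.53 (adjusted p = 0.129). These 3 were higher in 4 of 4 mice without passing, and Cd79a, the partner of Cd79b, differed by -0.02.

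Against the earlier bleeds 11 of 20 B cell genes were higher at day 25 and 0 lower, with a median of 0.27 where 22.4% of all genes were higher. Ighm was higher by 0.90 (adjusted p = 0.00074), Ms4a1 by 0.74 and Cd79b by 0.79. Against days 15 and 20 alone 9 of 20 were higher, where 17% of all genes were. Against day 0, the neutrophil and erythroid list medians fell in 4 of 4 mice and the B cell median rose in 3 of 4. Against the earlier bleeds the neutrophil median was higher (0.26) and the erythroid median lower (-1.06). The part of neutrophil and erythroid transcripts in the B cell difference was not tested. The B cell median from day 0 was 0.06 without the day 0 array of mouse 320, 0.09 without the day 25 array of mouse 305 and 0.09 without mouse 320 on both days, with 0 of 20 past the test in each. With mouse as a block 3 of 20 rose, where 0.251% of all genes did.

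Class II molecules present antigen on B cells, dendritic cells and monocytes. Of 11 tested MHC class II genes 1 rose (H2-Eb1) and 0 fell, 10 of 11 changes lay above 0 and the median was 0.24. Over all genes 0.0462% were called higher. H2-Eb1, a beta chain of class II, was 0.27, -0.20, 0.09 and -0.20 at day 0 and 0.70, 0.44, 0.41 and 0.41 at day 25, a change of 0.50 (SE 0.10, adjusted p = 0.0497). It was higher in each mouse with no overlap, and passed in 2 of 8 fits without 1 array. Against the earlier bleeds 7 of 11 were higher (22.4% of all genes), H2-Eb1 by 0.50 (adjusted p = 0.000246), Cd74, the invariant chain, by 0.46 and Ctss, the protease that trims it, by 0.61. H2 genes have near-identical copies, so a probe may read more than 1. The median from day 0 was 0.10 without the day 0 array of mouse 320 and 0.12 without the day 25 array of mouse 305.

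The H2-Eb1 window (RefSeq, GRCm38.p6, chr17:34305617-34305916, plus strand) is shown with the letters ATTGG, an inverted CCAAT box as in the Y box of class II promoters, searched on both strands and in capitals.
H2-Eb1: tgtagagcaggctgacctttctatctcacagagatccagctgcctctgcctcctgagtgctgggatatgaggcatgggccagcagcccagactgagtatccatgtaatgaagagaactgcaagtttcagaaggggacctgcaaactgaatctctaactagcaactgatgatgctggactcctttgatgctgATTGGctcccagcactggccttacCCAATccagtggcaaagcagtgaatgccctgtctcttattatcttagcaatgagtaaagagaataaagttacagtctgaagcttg
The matches begin 59 and 35 bases before the start, the second on the opposite strand. ATTGG is common, in 37.4% of all windows. Of the 8 class II list genes with a window 7 hold it, against 41.1% of all genes.

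Among the remaining higher genes, Dek, a chromatin protein, was -0.30 to 0.12 at day 0 and 0.22 to 0.43 at day 25, a change of 0.44 (SE 0.08, adjusted p = 0.0377), while its other kept probe changed by 0.060. Rps26, a ribosomal protein of the small subunit, was -0.07 to 0.12 and then 0.23 to 0.38, a change of 0.34 (SE 0.06, adjusted p = 0.0258). Thap4, a THAP domain gene, changed by 0.26 (SE 0.05, adjusted p = 0.0495), and LOC633908, an unnamed locus, by 0.58 (SE 0.11, adjusted p = 0.0413). None overlapped between the days. Rps26 is not in the ribosomal protein list, of which 0 of 40 tested genes passed, 38 of 40 changes lay above 0 and the median was 0.23, a sign that turned to a median of -0.07 with array medians in place of loess. Rps28 differed by 0.51 (SE 0.13, adjusted p = 0.0794) and Rps27 by 0.57 (SE 0.16, adjusted p = 0.103). Against the earlier bleeds 26 of 40 ribosomal genes were higher and 2 lower, where 22.4% and 16.1% of all genes were. Rps18 was 1.09 higher and Rps27 1.07, next to Rbm3, a cold-inducible RNA-binding protein, at 0.87.

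Interferon stimulated genes had a median of -0.19 from day 0, with 0 of 29 past the test. Isg15, a ubiquitin-like protein induced by interferon, was -0.50, -0.22, -0.30 and 0.71 at day 0 and -1.41, -0.51, -0.73 and -0.62 at day 25, a difference of -0.74 (SE 0.24, adjusted p = 0.139). The 12 earlier values were 0.33 to 1.25, and day 25 changed from them by -1.67 (adjusted p = 2.27e-05). Oasl2 and Oas3, of the oligoadenylate synthetase family, differed from day 0 by -1.01 (SE 0.27, adjusted p = 0.0945) and -0.64 (SE 0.17, adjusted p = 0.0984). Against the earlier bleeds 6 of 29 were lower and 2 higher, where 16.1% of all genes were lower and 22.4% higher, so the share of lower members was near that of all genes. The erythroid list median was also lower at day 25 (-0.66 to -0.05 by array) than at the earlier bleeds (0.08 to 0.69), and its part in the Isg15 difference was not tested.

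**Figure D4:**
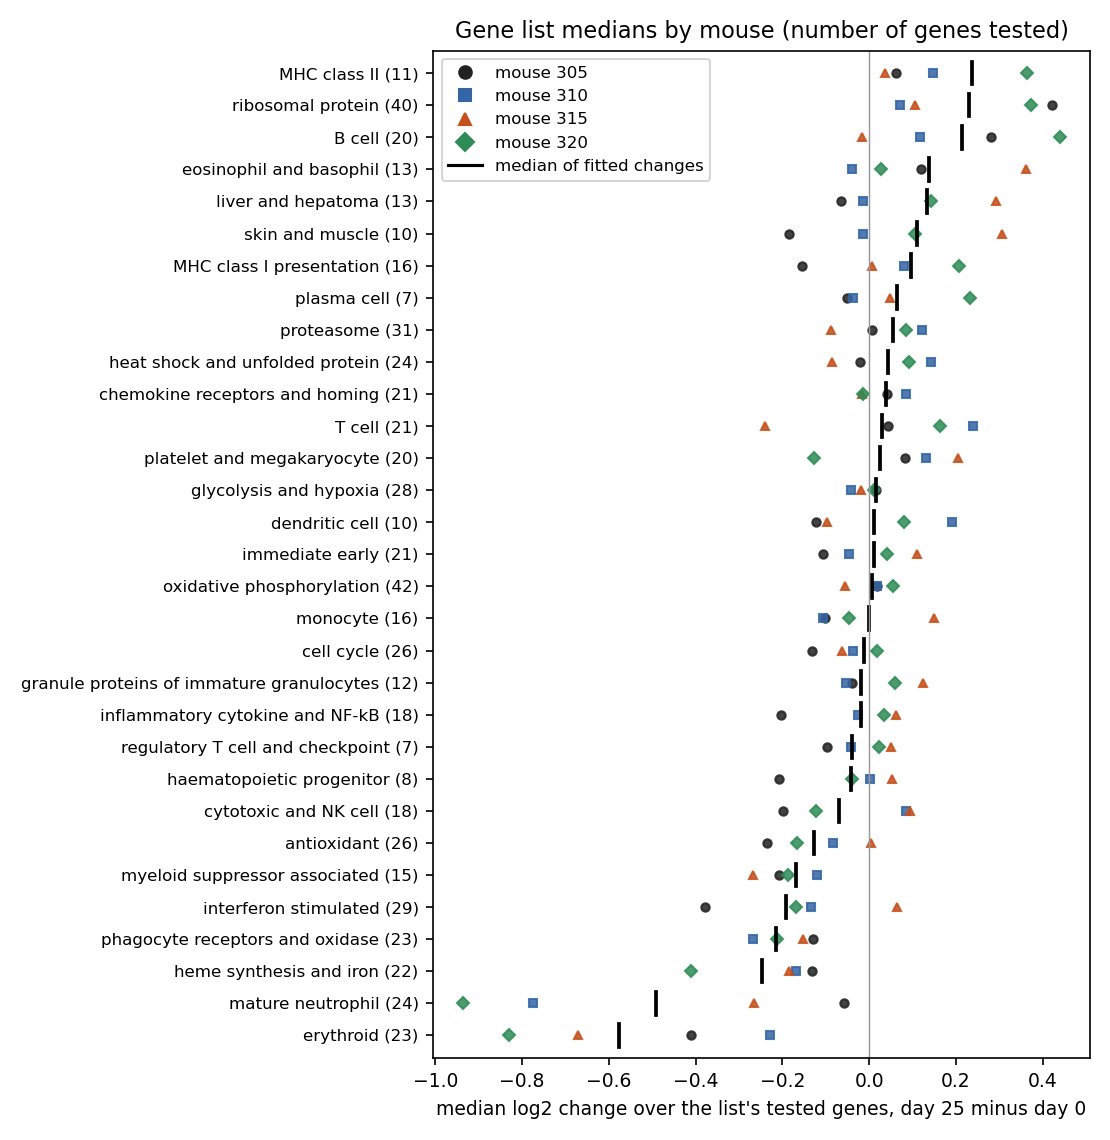
Median log2 change, day 25 minus day 0, over the tested genes of each of 31 lists. Symbols are the 4 mice and black bars the median of the fitted changes. The erythroid and neutrophil medians are the lowest (-0.58 and -0.49), MHC class II the highest (0.24), and most other lists lie near 0.

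The remaining lists had medians between -0.17 and 0.14 from day 0. Of the 15 tested genes of the list associated with myeloid suppressor cells 3 fell (Socs3, S100a8 and S100a9) and 0 rose, with a median of -0.17. Over all genes 0.158% were lower. S100a8 and S100a9 also belong to the mature neutrophil list, so these are not separate calls. Arg1, an arginine-degrading enzyme of suppressive myeloid cells, differed by 0.39 (adjusted p = 0.175). Of the 18 inflammatory cytokine and NF-kB genes 1 fell, and it was again Socs3. Granule proteins of immature granulocytes had 0 of 12 past the test and a median of -0.02, with changes from -0.51 to 1.24. Lcn2, a siderophore binder, differed by -0.20 and Serpinb1a, an elastase inhibitor, by 0.22. Monocyte genes had 0 of 16 and a median of -0.00084, with Treml4 at -0.48 and Lyz2, lysozyme, at 0.37.

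Lymphocyte lists other than B cell had no member past the test. T cell genes had 0 of 21 past the test and a median of 0.03, with Cd8b1, a chain of the CD8 co-receptor, at 0.38. Cytotoxic and NK cell genes had 0 of 18 and a median of -0.07, with the receptors Klrk1 at 0.23 and Klre1 at -0.15. Regulatory T cell and checkpoint genes had 0 of 7, with Ikzf2 at 0.27 and Tnfrsf18 at -0.18. None of these members passed, and the T cell medians by mouse ran from -0.24 in mouse 315 to 0.24 in mouse 310. Plasma cell genes had 0 of 7 and a median of 0.06, with Jchain, which joins IgM and IgA, at 0.31 (adjusted p = 0.0998) and Prdm1 at 0.25. Chemokine receptor and homing genes had 0 of 21 and a median of 0.04, from -0.52 (Cxcr2, a chemokine receptor of neutrophils) to 0.43 (Cxcr5, the follicle-homing receptor of B cells), with S1pr1, the egress receptor, at 0.36.

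Platelet genes had 0 of 20 past the test and a median of 0.03, with Rgs18 at 0.37 and F2rl2 at 0.11. Eosinophil and basophil genes had 0 of 13 and a median of 0.14, with Fcer1a at 0.21 and Il4 at 0.19, dendritic cell genes 0 of 10, with Ccr9 at -0.24 and Ly6d at 0.42, and progenitor genes 0 of 8, with Lmo2, an erythroid cofactor, at -0.60 and Erg at -0.18. Cell cycle genes had 0 of 26 and a median of -0.01, yet Ube2c and Nusap1, mitotic genes, differed by -0.97 (SE 0.21, adjusted p = 0.0635) and -0.77 (SE 0.20, adjusted p = 0.0892), and against the earlier bleeds 11 of 26 were lower (16.1% of all genes) and 5 higher (22.4%). MHC class I genes had 0 of 16, with the transporter Tap2 at -0.32 and Psme2 at 0.27.

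In 4 further lists no member passed the test. Oxidative phosphorylation had 0 of 42, a median of 0.01, Cox7a2 at -0.44 and Cox17 at -0.82, immediate early genes 0 of 21, Klf2 at -0.70 and Egr1 at 0.21, heat shock genes 0 of 24, Hspa4 at 0.23 and Pdia4 at -0.12, and proteasome genes 0 of 31, Psmb7 at -0.19 and Psmb3 at 0.31. A p that misses the threshold does not show that these values were equal.

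Transcripts of other tissues were looked for because blood can carry tumour or skin material. Of 13 tested liver and hepatoma genes 0 passed, and the median was 0.13. Afp was well above background before inoculation as well as after and differed by 0.02 (SE 0.06, adjusted p = 0.887). Gpc3, a proteoglycan of hepatoma, differed by 0.41 (adjusted p = 0.109) and was higher in 3 of 4 mice, and Krt18, an epithelial keratin, by 0.52 (adjusted p = 0.235) and was higher in 2. Of 10 skin and muscle genes 0 passed, with a median of 0.11, 6 of 10 changes above 0, and changes from -0.20 (Mylpf, a muscle myosin light chain) to 0.48 (Krt14, a skin keratin). Acta1 was not well above background on any day 25 array.

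**Figure D5:**
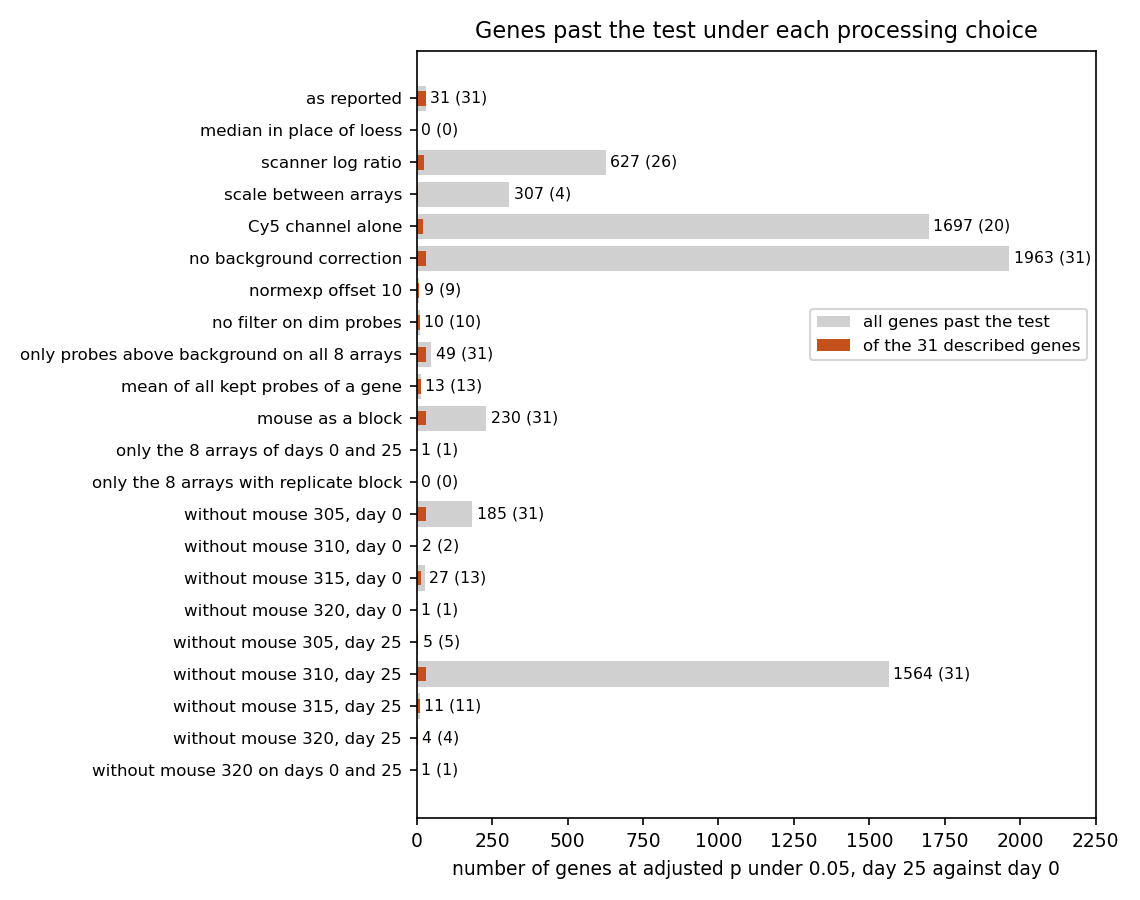
Number of genes at an adjusted p under 0.05 for day 25 against day 0 under each processing choice and with each of the 8 arrays left out. Grey bars are all genes, orange bars those of the 31 described genes, and the labels give both counts, from 0 with array medians in place of loess to 1963 without background correction.

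The number of genes past the test depended strongly on the processing. It was 0 with array medians in place of loess (460 at an unadjusted p of 0.05), 9 with a smaller normexp offset and 1963 without background correction, of which 31 were the genes described here. The balance of direction moved too: 128 higher and 179 lower with scaling between arrays, 932 and 765 with the Cy5 channel alone and 856 and 1107 without background correction, against 7 and 24. For day 25 against the earlier bleeds it moved from 3390 higher and 2438 lower to 7664 and 152 with array medians and to 2329 and 2584 with scaling between arrays. The medians of the neutrophil, erythroid, heme, phagocyte, B cell and class II lists from day 0 kept their sign in every alternative run.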

How the data were processed

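Whole blood RNA was measured on 20 two-colour Agilent whole mouse genome arrays (5 days, 4 mice), of which 8 make up the comparison. Per the file headers, the deposited scanner files hold spot intensity for each channel and a log10 ratio of Cy5 over Cy3, and per the submitters' processing notes they were made with Agilent Feature Extraction 9.1.3.1. The deposited series table equals that log10 ratio, within 1e-6, at 900360 of 900360 values. Mean and background intensities were corrected with normexp (offset 50) and normalised by loess within each array in limma 3.58.1 (R 4.3.3), with control spots left out of the test. Probes had to be well above background in Cy5 on at least 4 arrays, and the brightest kept probe stood for a gene (20920 probes, 15161 genes). Of 41174 probes 56.8% were named through their accession, 16.4% by symbol, 7.09% by synonym and 19.8% by the file's own name. One limma model over all 20 arrays gave day 25 minus day 0 and day 25 minus the mean of days 10, 15 and 20, with Benjamini-Hochberg adjustment over all genes and a threshold of 0.05. The number of arrays limits the precision. Blood of 1 mouse on different days comes from the same animal, so the numbers pair the samples. The correlation of deviations from the day means was 0.31, -0.42, -0.36 and 0.23 for mice 305, 310, 315 and 320.

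The members, the 31 gene lists and the tests were chosen with earlier results of these data known. Genes named were up to 12 highest and 12 lowest called against day 0, with a gene symbol and the same sign in every mouse. Up to 4 called members of each list were named too, or the 2 with the smallest p where none was called. The 6 highest and 6 lowest against the earlier bleeds needed a symbol and every day 25 array on the same side of the earlier mean. The other called genes were added after their values were seen. So were Rhd, Car2, Rhag, Ermap, Eraf, Hba-a1, Lrg1, Retnlg, Slpi, Krt14, Cxcr2, Tal1, Slc11a2, Ms4a1, Cd79a, Cd79b, Cd74, Ctss and Arg1. Alternatives covered background correction, normalisation, channel, dim probes, the probe per gene, the pairing, the arrays in the fit and each array left out. Some genes this rule names are not reported here.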

Additional observations from a re-analysis of the deposited data

Results flagged for a closer look

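In 3 of 124 groups of 4 arrays, 1 array lay far from the others of its day, where chance gives about 1 in 20. H2-Eb1 was 0.70 at day 25 in mouse 305 and 0.41 to 0.44 in the others. Rps26 was 0.23 at day 25 in mouse 315 and 0.36 to 0.38 in the others. The T cell list median was 0.19 at day 0 in mouse 315 and -0.03 to -0.01 in the others.

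For 24 of the 31 genes, day 25 also differed from the mean of days 10, 15 and 20 by the limma test of that difference. The change was -1.75 for Trim10, -1.71 for Prxl2a, -1.68 for Atg4a, -1.52 for St3gal5, -1.44 for Dnajb2 and -1.18 for Ube2f. It was -1.15 for 8430428J23Rik, -1.07 for BC048507, -1.06 for Zfp773, -0.67 for Picalm, -0.46 for Rraga, -0.42 for Eif3j1, -0.22 for Ube2d3 and -0.20 for Rhoa. Among genes higher than at the earlier bleeds it was 0.18 for Fcer2a, 0.20 for Thap4, 0.26 for Rps26, 0.33 for Dek, 0.50 for H2-Eb1, 0.69 for LOC633908 and 0.95 for Igh-VJ558. Adam8 (0.36), S100a8 (0.65) and S100a9 (0.79) were higher than at the earlier bleeds and lower than at day 0.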

How the results depend on the processing

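The number of genes past the test, 31 as reported, was 0 with array medians in place of loess, 627 with the scanner's log ratio, 307 with scaling between arrays, 1697 with the Cy5 channel alone, 1963 without background correction, 9 with a normexp offset of 10, 10 without the filter on dim probes, 49 with probes above background on all 8 arrays and 13 with the mean of a gene's probes. With the replicate block, which uses the pairing by mouse, it was 230. It was 1 with the 8 arrays alone (1755 at an unadjusted p of 0.05), 0 with the 8 arrays and the block (1822) and 1 without mouse 320 on both days, an alternative chosen after seeing the data, as was the comparison with days 15 and 20 alone. Leaving out 1 array gave 1 to 1564. The 31 genes kept their direction in every alternative run, except 8430428J23Rik (0.73) and BC048507 (0.80) with the Cy5 channel alone. The count against the earlier bleeds stayed within 3932 to 7816. The cause of these shifts was not tested.

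Among genes that did not pass, some changed sign. With the Cy5 channel alone these were Hba-a1 (-0.24), Tnfrsf18 (0.0059), Rgs18 (-0.11), F2rl2 (-0.10), Erg (0.019), Hspa4 (-0.13), Pdia4 (0.0063) and Psmb7 (0.061). With the scanner's log ratio they were Klrk1 (-0.11), Ikzf2 (-0.45), F2rl2 (-0.13) and Egr1 (-0.042), and with array medians Hba-a1 (-0.94) and Lyz2 (-0.062). Hba-a1 ranged from -0.081 to 0.39 with 1 array left out. No fit with slide as a block was possible because each day lies on 1 slide.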
